A study of Mus musculus with 6 samples.

Results

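The SR splicing factors and the hnRNP proteins are RNA-binding proteins of the nucleus that decide which exons enter a messenger RNA. SR proteins carry arginine and serine repeats, are controlled by phosphorylation and mostly promote the use of an exon by binding enhancers in it, whereas hnRNP proteins coat nascent transcripts and often repress splice sites. Many of them also shuttle to the cytoplasm and act in export, stability and translation, and many hold their own level by splicing their own transcripts into forms that are degraded. The cytoplasmic polyadenylation element binding protein CPEB1 binds uracil-rich elements (CPEs) in 3′ untranslated regions (3′ UTRs) and controls poly(A) tail length and translation. The transcripts of 39 genes of these families were followed here. They were chosen by symbol alone: 13 SR genes (Srsf1 to Srsf7 and Srsf9 to Srsf12, with Tra2a and Tra2b), 23 hnRNP genes (every Hnrnp gene, with Ptbp1, Ptbp2 and Ptbp3), and Srrm1, Srrm2 and Son, whose proteins are SR-related parts of nuclear speckles. They are 39 of the 55376 genes in the deposited tables. Names ending in -ps or -ps2 were left out (2 genes, with 0 to 3 counts in a library).

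Muscle stem cells, or satellite cells (SCs), were isolated by cell sorting from C57BL/6 mice aged 3 months, and every library came from such cells without a genetic change or a treatment. RNA was immunoprecipitated with an antibody against CPEB1 (CPEB1 IP) or with IgG, which gives the RNA recovered without a specific target, and input RNA was taken without an antibody. Each of the 3 groups had 2 libraries, numbered 1 and 2, prepared by the SMART-seq2 method. The labels do not tie the libraries to animals, and the study's methods treat the numbers as independent experiments. The p-values measure the spread between these libraries.

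Counts on genes ranged from 1284716 to 4941653 per library, lowest in IgG 1 and highest in CPEB1 IP 2. They made up 69.5 to 69.9% of the library total used for the deposited FPKM (fragments scaled by gene length and library total) in CPEB1 IP, 71.1 to 79.8% in input, and 39.1 to 39.5% in IgG. The IgG libraries were deposited in tables of their own. What differed between those tables and what differed between IgG and the other groups cannot be told apart. All 10 satellite cell markers, among them Pax7, Myf5 and Calcr, exceeded 1 FPKM in both input libraries. The 4 immune genes summed to 17.6 and 12 FPKM there. Of these, Cd68 (12.4 and 6.13 FPKM) and Lyz2 (5.12 and 5.86 FPKM) exceeded 1 FPKM in both, while Adgre1 was at 0.0671 and 0 FPKM and Ptprc at 0 and 0.0132 FPKM. The smooth muscle list (Acta2, Myh11 and Rgs5) summed to 172 and 217 FPKM. The fibro-adipogenic list summed to 38.1 and 33.3 FPKM, the muscle fibre list to 26.5 and 24.5 FPKM and the endothelial list to 3.72 and 2.96 FPKM. The part of other cells in the results was not tested.

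The CPE was common in these genes. Of the 39, 37 (94.9%) held at least 1 of 9 CPE motifs in an annotated 3′ UTR, against 8086 of the 10875 tested genes with such a region (74.4%). The motifs were TTTTAT and its longer form TTTTAAT, the variants TTTTCAT or else TTTTACT with a cytosine, the longer TTTTAAAT besides TTTTAATT, the forms TTTTAAGT as well as TTTTAAAGT with a guanine, and lastly TTTTAACT, searched on the transcript strand with T in place of U. TTTTAATT contains TTTTAAT and such matches overlap. TTTTAT or TTTTAAT was held by 35 members (89.7%) and by 66.9% of the tested genes. The longest annotated 3′ UTR had a median length of 1429 bases over the members and 1285 over the tested genes, and it held 3.07 CPE positions per kilobase over the members and 2.07 over the tested genes. The elements nearest to the 3′ end are shown for 5 hnRNP transcripts that were higher in CPEB1 IP than in IgG and for 4 SR transcripts that were lower, since both sets carried them. Capitals mark the motif. Sequences are from GENCODE M21 transcripts on mm10, written 5′ to 3′ on the strand of the gene. The distance is that from the motif to the end of the longest annotated 3′ UTR, and the end used in these cells was not examined. The last 50 bases of that region lacked the polyadenylation signal AATAAA in Hnrnpk, Ptbp1 and Srsf2 and held it in the other genes shown.
Hnrnpa1 (chr15:103244763-103244792, plus strand, 175 bases): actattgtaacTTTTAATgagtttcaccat
Hnrnpc (chr14:52073643-52073672, minus strand, 278 bases): tataaaaatggcTTTTATtgtgacccccct
Hnrnpf (chr6:117925399-117925428, plus strand, 206 bases): ttctagttataTTTTCATttaaaatcttta
Hnrnpk (chr13:58391966-58391995, minus strand, 836 bases): ttgtaagaaacgTTTTATgatttttaaaat
Ptbp1 (chr10:79864338-79864367, plus strand, 416 bases): ccattaaagcagTTTTATaacctctgtctt
Srsf1 (chr11:88053564-88053593, plus strand, 174 bases): ttgttgaaggtgTTTTATatatatgaagta
Srsf2 (chr11:116850775-116850804, minus strand, 886 bases): tggcaaacttcaTTTTATgtgccattttgt
Srsf5 (chr12:80950387-80950416, plus strand, 103 bases): cttaatatgagTTTTACTtgttagggtcaa
Tra2a (chr6:49244098-49244127, minus strand, 186 bases): ttaaagtgtgatTTTTATgttaaatttaca
A match is a description of the letters and not of binding.

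In input RNA the splicing factor transcripts were abundant. Their median level was 28.7 FPKM, against 4.78 FPKM over the 12124 genes tested in CPEB1 IP against IgG, and 36 of the 39 lay above that median. Srsf5, an SR protein that promotes the inclusion of exons, had the highest level at 158 and 178 FPKM in input 1 and 2. Hnrnpk, a poly(C) binder with KH domains, followed at 125 and 163 FPKM, then Srsf7 at 134 and 136 FPKM and Hnrnpa2b1 at 86.5 and 125 FPKM. These neighbours overlapped apart from Srsf7 and Hnrnpa2b1, and 29 of the 38 neighbouring pairs in the whole order overlapped between the 2 libraries. At the low end stood Hnrnpul2 at 1.47 and 2.88 FPKM and Srsf12 at 0.414 and 0.536 FPKM. Input 2 was higher than input 1 for 37 of the 39 genes in deposited FPKM, whose library totals differed in the share on genes, while in TMM-normalised counts 8 of the 39 were lower in input 2. In such bulk RNA fewer cells of a type and less RNA per cell cannot be told apart.

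**Figure D1:**
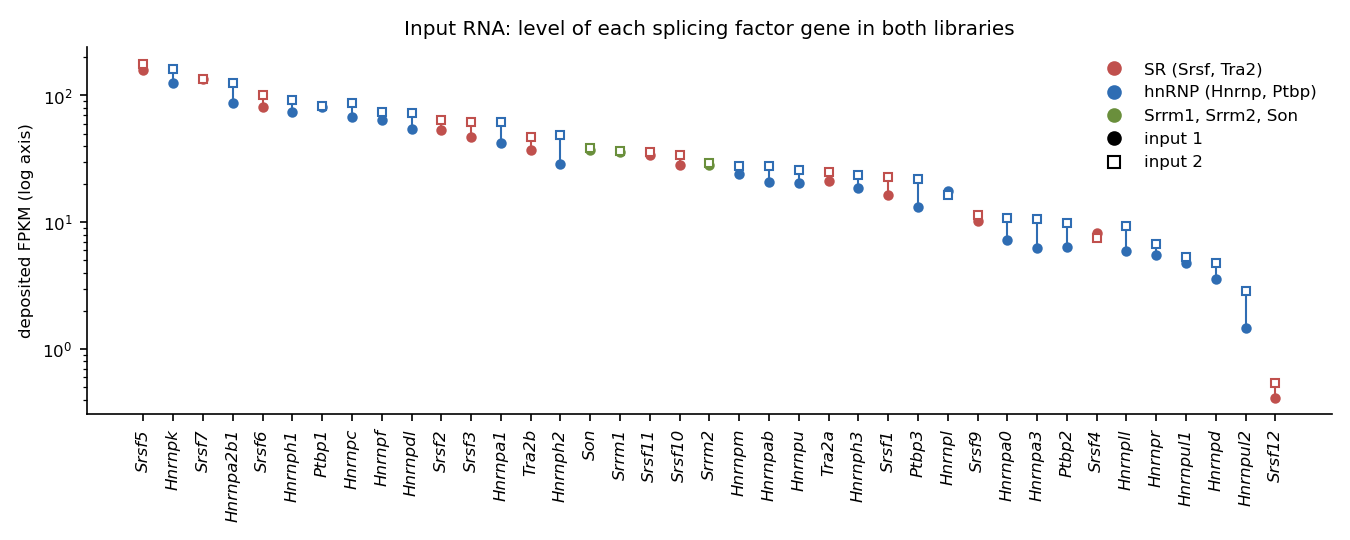
Deposited FPKM of each of the 39 genes in the input libraries (log axis), with input 1 as a filled circle, input 2 as an open square and genes ordered by their mean. Levels run from Srsf5 at 158 and 178 FPKM down to Srsf12 at 0.414 and 0.536 FPKM, and SR and hnRNP genes are mixed along the order.

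The comparison of CPEB1 IP with IgG asks which transcripts were recovered with CPEB1 beyond the background of the procedure. All 39 genes passed the filter on low counts, Srsf12 through its IgG libraries alone, so its call against IgG is tied to that filter. Of the 23 hnRNP genes, 9 rose in CPEB1 IP and 3 fell, while of the 13 SR genes none rose and 6 fell, and of the 3 speckle genes 1 fell (edgeR's quasi-likelihood test, Benjamini-Hochberg adjusted p under 0.05 over 12124 genes). Over all genes tested, 14.7% were higher and 18.7% were lower. These directions are those of the TMM scaling, which centres the bulk of the genes near 0, and with the library totals behind the deposited FPKM 21 of the 23 hnRNP genes and 11 of the 13 SR genes were higher, where 59.0% of all genes were. At an unadjusted p under 0.05 the count of SR genes higher in CPEB1 IP was 0 as well, and with DESeq2 it was 1, Srsf6, after adjustment and 4 before it. The median log2 fold change was 0.17 for the hnRNP genes, -0.13 for the SR genes and -0.01 for all genes tested. The share of a library's counts taken by the 39 genes was alike in all groups, between 1.22 and 1.38%.

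The hnRNP transcripts that rose over IgG were those of Hnrnph2, Hnrnpul2, Ptbp1, Hnrnpa1, Hnrnpm, Hnrnpf, Hnrnpk, Hnrnpc and Hnrnpa2b1. Ptbp1 encodes the polypyrimidine tract binding protein, a repressor of many tissue-specific exons. It had 677 and 664 TMM-normalised counts scaled to library size (CPM) in CPEB1 IP, against 428 and 420 in IgG, with 540 and 513 in input, so the 3 groups did not overlap. Its log2 fold change over IgG was 0.59 ± 0.09 (standard error, edgeR adjusted p = 6.81e-05). Hnrnpa1, a shuttling member of the A/B type, had 320 and 309 CPM in CPEB1 IP, against 199 and 207 in IgG, with 189 and 255 in input. Both CPEB1 IP libraries exceeded all 4 others, and the log2 fold change over IgG was 0.56 ± 0.10 (edgeR adjusted p = 2.66e-04). Hnrnpm, which binds GU-rich RNA, had 390 and 419 CPM in CPEB1 IP, against 278 and 256 in IgG, with 271 and 287 in input, and again both CPEB1 IP libraries were the highest (log2 fold change over IgG 0.54 ± 0.10, edgeR adjusted p = 3.33e-04). Hnrnpc, a binder of uridine tracts, had 639 and 597 CPM in CPEB1 IP, against 458 and 438 in IgG, with 412 and 491 in input (0.40 ± 0.09, edgeR adjusted p = 0.00243).

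In the next 3 transcripts IgG was the low group, and CPEB1 IP did not pass the test against input. Hnrnpk had 1342 and 1190 CPM in CPEB1 IP, against 821 and 865 in IgG, with 1138 and 1378 in input. Its log2 fold change over IgG was 0.52 ± 0.09 (edgeR adjusted p = 2.86e-04), and the CPEB1 IP and input values overlapped. Hnrnpf and Hnrnph2 encode close relatives that bind runs of guanines. Hnrnpf had 349 and 314 CPM in CPEB1 IP, against 229 and 205 in IgG, with 275 and 297 in input (0.54 ± 0.11, edgeR adjusted p = 5.25e-04). Hnrnph2 had 240 and 199 CPM in CPEB1 IP, against 72.2 and 133 in IgG, with 179 and 276 in input. It had the largest log2 fold change over IgG of the 39 genes, 1.01 ± 0.17 (edgeR adjusted p = 1.60e-04). The size of that change depended on the IgG library, since the 2 differed widely, and it lay between 0.70 and 1.58 as each of the 4 libraries was left out in turn.

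Hnrnpa2b1, which takes part in RNA sorting, and Hnrnpul2, a relative of the nuclear scaffold protein hnRNP U, were less firm. Hnrnpa2b1 had 995 and 946 CPM in CPEB1 IP, against 722 and 827 in IgG, with 804 and 1078 in input (0.26 ± 0.09, edgeR adjusted p = 0.0382), and it no longer passed without IgG replicate 1, with the replicate number as a block (edgeR adjusted p = 0.0702) or with all 6 libraries in 1 fit (0.166). Hnrnpul2 had 27.5 and 27.9 CPM in CPEB1 IP, against 14.4 and 16.0 in IgG, with 14.7 and 26.8 in input (0.79 ± 0.29, edgeR adjusted p = 0.0368). Its counts were 19 and 22 in IgG, and its call was lost when any of the 4 libraries was left out. The other 7 rose under every alternative fit run: Hnrnpa1, Hnrnpc, Hnrnpf, Hnrnph2, Hnrnpk, Hnrnpm and Ptbp1. Those fits used other library scalings or DESeq2, kept all genes however low, blocked on the replicate number, took all 6 libraries at once, or left out each library in turn. The median of the genes tested was 0.00 with RLE, 0.27 with DESeq2, 0.39 with no filter and 0.80 with the deposited totals, against -0.01 with TMM. A shift upward keeps a rise over IgG and takes away a fall, so those scalings hardly tested the rises.

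**Figure D2:**
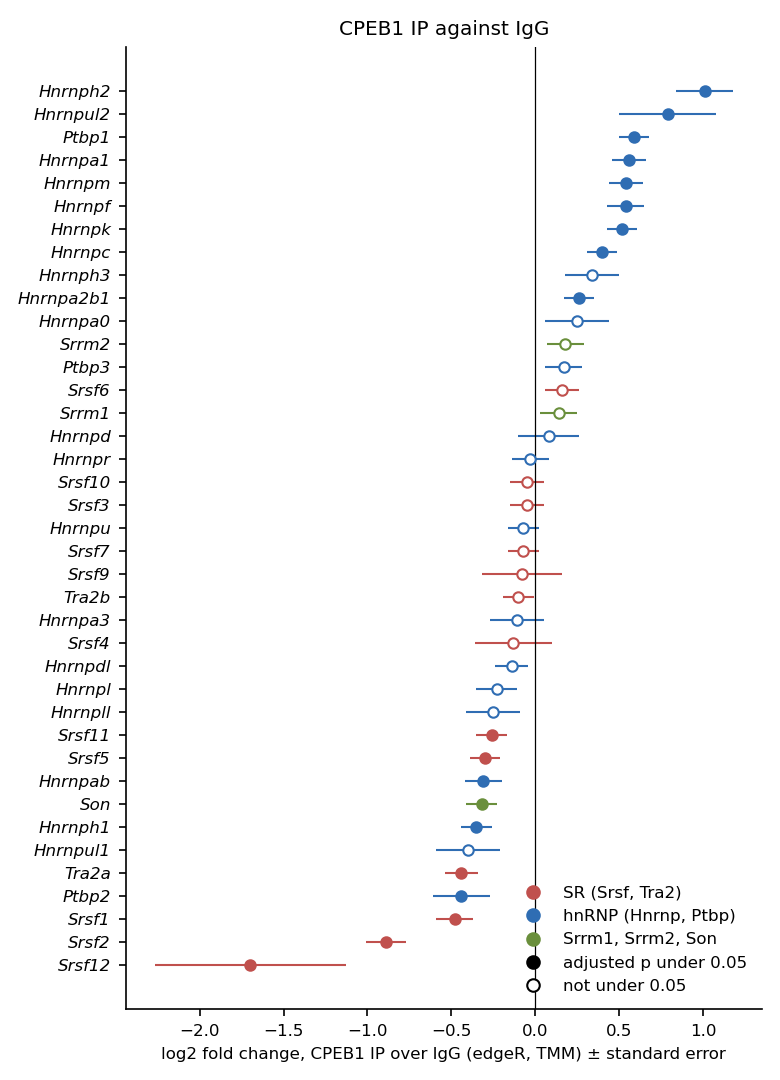
Log2 ratio of CPEB1 IP to IgG with its standard error for the 39 genes (edgeR, TMM scaling), coloured by family and filled where the adjusted p was under 0.05. The 9 filled points on the right are all hnRNP genes, from Hnrnph2 at 1.01 to Hnrnpa2b1 at 0.26, and 6 of the 10 filled points on the left are SR genes, with Srsf12 at -1.70 and Srsf2 at -0.89 the lowest, whereas with the deposited FPKM totals 35 of the 39 were higher and 0 were lower.

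With TMM scaling, the SR transcripts that fell against IgG were those of Srsf12, Srsf2, Srsf1, Tra2a, Srsf5 and Srsf11. Srsf2 (SC35), which activates exons and is a classical marker of speckles, had 232 and 167 CPM in CPEB1 IP, against 348 and 349 in IgG, with 224 and 246 in input. IgG was the high group, without overlap, and the log2 fold change over IgG was -0.89 ± 0.12 (edgeR adjusted p = 2.69e-05). Srsf1, the founding member of the family, had 169 and 157 CPM in CPEB1 IP, against 215 and 218 in IgG, with 133 and 171 in input (-0.48 ± 0.11, edgeR adjusted p = 0.00182). Tra2a, which binds purine-rich enhancers, had 236 and 211 CPM in CPEB1 IP, against 279 and 296 in IgG, with 208 and 226 in input (-0.44 ± 0.10, edgeR adjusted p = 0.00263). For all 3 the CPEB1 IP and input values overlapped, and both IgG values lay above all 4 others.

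Srsf5 had another order. It had 705 and 639 CPM in CPEB1 IP, against 780 and 801 in IgG, with 890 and 927 in input, so that CPEB1 IP was below both other groups (over IgG -0.30 ± 0.09, edgeR adjusted p = 0.0135). Srsf11, an SR protein that interacts with the splicing factor U2AF, had 529 and 565 CPM in CPEB1 IP, against 599 and 656 in IgG, with 403 and 395 in input, placing CPEB1 IP between the other groups (over IgG -0.26 ± 0.09, edgeR adjusted p = 0.0340). Srsf12 rested on few counts, 1 and 15 in CPEB1 IP against 8 and 10 in IgG, and its log2 fold change of -1.70 ± 0.57 (edgeR adjusted p = 0.0266) ranged from -3.82 to -1.13 as each library was left out. The call for Srsf12 was lost each time. The calls of Srsf5 and Srsf11 were not firm either. That of Srsf11 was lost in 8 of the 10 alternative fits, among them the replicate block (edgeR adjusted p = 0.0632) and all 6 libraries in 1 fit (0.110), and that of Srsf5 in 7, among them all 6 libraries in 1 fit (0.0614). Each of the 2 was lost in 3 of the 4 fits with a library left out. Those of Tra2a and Srsf1 were lost in 5 and 4, and that of Srsf2 in 1. Some of these fits moved all genes upward, so a fall was lost more readily than a rise, here and for the falls below.

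Outside the SR genes and with the same scaling, Son, Hnrnph1, Hnrnpab and Ptbp2 fell against IgG. Son, a scaffold of the speckle, had 720 and 765 CPM in CPEB1 IP, against 861 and 908 in IgG, with 780 and 752 in input (log2 fold change over IgG -0.32 ± 0.09, edgeR adjusted p = 0.00944). Hnrnph1, the nearest relative of Hnrnph2, had 632 and 563 CPM in CPEB1 IP, against 743 and 706 in IgG, with 616 and 705 in input (-0.35 ± 0.09, edgeR adjusted p = 0.00682). The pair thus lay on opposite sides of 0 under this scaling. How reads shared by such relatives were counted is not given in the sources used here. Hnrnpab, a relative of Hnrnpd, had 152 and 144 CPM in CPEB1 IP, against 175 and 173 in IgG, with 81.3 and 101 in input (-0.31 ± 0.11, edgeR adjusted p = 0.0390). Ptbp2, the neuronal relative of Ptbp1, had 90.4 and 72.9 CPM in CPEB1 IP, against 83.5 and 125 in IgG, with 83.2 and 119 in input, and its IgG and CPEB1 IP values overlapped (-0.44 ± 0.17, edgeR adjusted p = 0.0478). The call of Hnrnpab was lost in 9 of the 10 alternative fits, among them every one with a library left out and the replicate block (edgeR adjusted p = 0.0592), that of Ptbp2 in 7, and those of Son and Hnrnph1 in 5 each.

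The remaining 20 genes did not pass the test against IgG. Their log2 fold changes ran from -0.40 ± 0.19 for Hnrnpul1 to 0.34 ± 0.16 for Hnrnph3 (edgeR adjusted p = 0.111 and 0.106). Among them were the abundant SR genes Srsf3 (-0.05 ± 0.10), Srsf6 (0.16 ± 0.10), Srsf7 (-0.07 ± 0.09) and Tra2b (-0.10 ± 0.09), and also Srsf4 (-0.13 ± 0.23), Srsf9 (-0.08 ± 0.24) and Srsf10 (-0.05 ± 0.10). Of the hnRNP genes, Hnrnpu, the nuclear scaffold protein, was at -0.07 ± 0.09, Hnrnpd, the AU-rich element binder AUF1, at 0.08 ± 0.18, Hnrnpdl at -0.14 ± 0.10, Hnrnpr at -0.03 ± 0.11 and Hnrnpa0 at 0.25 ± 0.19. Hnrnpa3 was at -0.11 ± 0.16, Hnrnpl at -0.23 ± 0.12, Hnrnpll at -0.25 ± 0.16 and Ptbp3 at 0.17 ± 0.11. Srrm1 and Srrm2, the splicing coactivators of the speckle, were at 0.14 ± 0.11 and 0.18 ± 0.11. A p that misses the threshold does not show that the groups were alike.

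**Figure D3:**
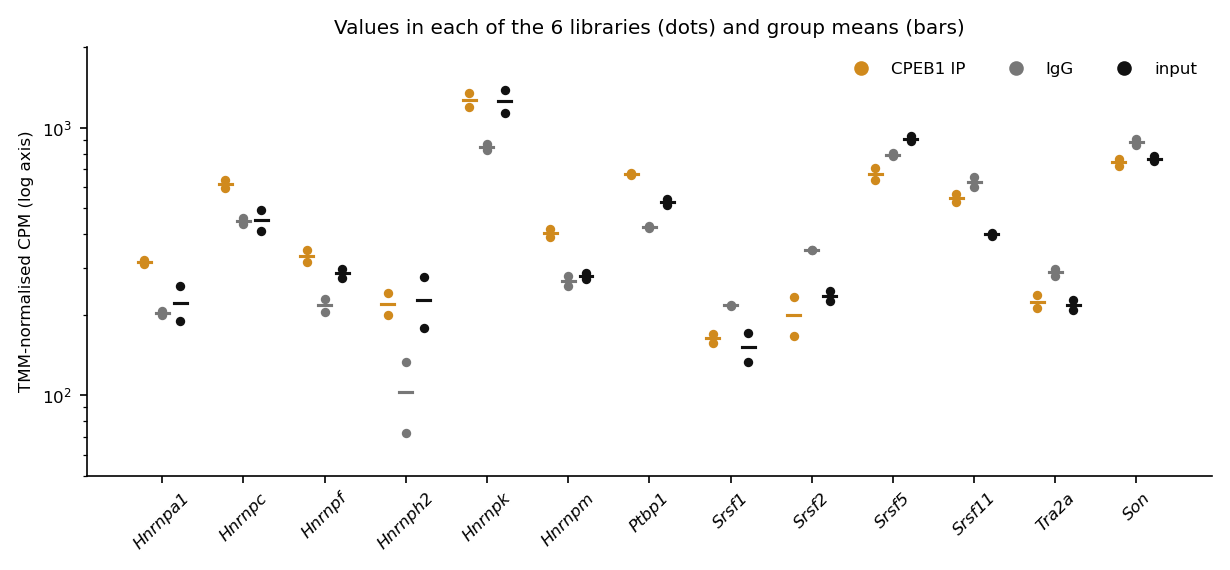
TMM-normalised CPM of 13 genes in each library (dots, log axis), with a bar at the mean of the 2 libraries of CPEB1 IP, IgG and input. For the 7 hnRNP genes on the left both CPEB1 IP values lie above both IgG values, and for the 6 genes on the right both lie below, with Srsf2 at 232 and 167 CPM against 348 and 349 (with the deposited FPKM totals, Srsf2 alone of these 6 stayed below 0).

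How many of the 39 genes were called higher or lower depended on how the libraries were scaled. The calls were 9 higher and 10 lower with TMM (14.7% and 18.7% of all genes tested) and 9 and 9 with RLE size factors (15.3% and 18.4%). They were 14 and 1 with DESeq2 (13.6% and 5.12% of the 19222 genes with an adjusted p), 17 and 1 with TMM and no filter on low counts (8.36% and 5.56% of 42045 genes), and 35 and 0 with the library totals behind the deposited FPKM. The median of the 12124 genes moved with the scaling as well, to 0.27 with DESeq2, 0.39 with no filter and 0.80 with the deposited totals, where 59.0% of the genes were higher and 7.73% were lower. Relative to that median, the hnRNP genes stood at 0.18 and the SR genes at -0.12 under each of these 5 scalings. The median hnRNP gene was 0.30 to 0.31 log2 units above the median SR gene in each of them, which is so by construction, since another scaling adds nearly the same amount to every gene. As each library was left out, this difference was 0.34 to 0.49. Among the falls, Srsf2 kept its sign and its call under every fit but that with the deposited totals (log2 fold change -0.09, edgeR adjusted p = 0.516, with a range of 2.75e-14 to 0.516 over the alternatives), while Srsf1, Tra2a, Srsf5, Srsf11, Son, Hnrnph1, Hnrnpab and Ptbp2 were above 0 with those totals.

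A ratio within a library needs no scaling between libraries. The summed FPKM of the 23 hnRNP genes was 1.55 and 1.57 times that of the 13 SR genes in CPEB1 IP, 1.15 and 1.11 times in IgG, then 1.24 and 1.40 times in input. Both CPEB1 IP libraries were above all 4 others, and both IgG libraries were below them. This ratio was chosen after the values were seen and has no test.

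**Figure D4:**
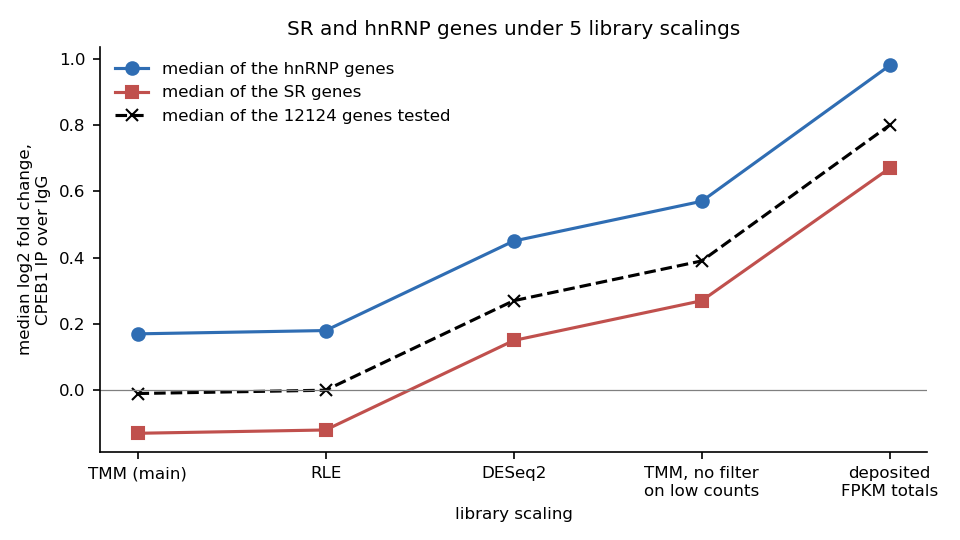
Median log2 ratio of CPEB1 IP to IgG for the hnRNP genes (circles), the SR genes (squares) and all genes tested (crosses) under 5 ways of scaling the libraries. All 3 lines rise from TMM to the deposited totals, and the hnRNP line lies 0.30 to 0.31 above the SR line, a distance that rescaling leaves nearly fixed by construction.

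A rule modelled on the study's criterion asks for a ratio of CPEB1 IP to IgG in FPKM above 2 in each experiment and a passing count test. It was applied here with 1 added to each FPKM and with edgeR, where the study's methods name no pseudocount and use DESeq2. In this form 7 of the 39 genes met it, against 12.1% of the genes tested, and all 7 were hnRNP genes. Without a pseudocount and with DESeq2, 9 met it, against 10.2% of the genes with an adjusted p, the added genes being Hnrnph3 and Hnrnpul2. The ratios in experiments 1 and 2 were 2.54 and 2.52 for Hnrnpa1, 2.22 and 2.32 for Hnrnpc, and 2.42 and 2.59 for Hnrnpf. They were 4.81 and 2.46 for Hnrnph2, where the spread of the IgG libraries returned, and 2.61 and 2.35 for Hnrnpk. Hnrnpm gave 2.18 and 2.70 and Ptbp1 gave 2.51 and 2.68. Hnrnph3 met the ratio, at 2.04 in the lower of the experiments, and did not pass edgeR, but passed DESeq2 (log2 fold change 0.63, adjusted p = 0.0217). None of the SR genes passed the ratio in both experiments, Srsf6 being nearest at 2.09 and 1.81 and Srsf9 the most uneven at 2.42 and 1.14. The FPKM compared here come from separate tables, and the ratio includes the shift of the deposited totals: its median was 1.67 and 1.57 over the members and 1.45 and 1.52 over all genes tested. With FPKM rebuilt on TMM library sizes, 0 of the 39 genes met the rule. The share over all genes under that setting is not given here, so the 0 is not a result about these genes.

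Against input, which asks what CPEB1 IP held more of than the starting RNA, 8 of the 23 hnRNP genes were higher and none was lower, while 2 of the 12 SR genes tested were higher and 1 was lower. Of the 38 genes tested (Srsf12 had too few counts), 11 were higher and 1 was lower, where 17.0% and 15.8% of the 12171 genes tested were higher and lower. The share of SR genes that were higher, 16.7%, was near that background. Srrm2 was the other higher gene, and the median log2 fold change was 0.11 for the hnRNP genes, 0.10 for the SR genes and -0.00 for all genes. Without input replicate 1 the SR median was -0.03 and the hnRNP median 0.07, and without input replicate 2 they were 0.18 and 0.32. With the deposited totals both medians were -0.09, and that of all genes was -0.19. Before rounding, the medians of the 2 families differed by 0.00 with TMM, by 0.10 without input replicate 1 and by 0.14 without input replicate 2. Both comparisons use the same CPEB1 IP libraries, so they are not independent.

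Srrm2 had the largest change over input. It had 1017 and 774 CPM in CPEB1 IP, 511 and 489 in input and 770 and 734 in IgG, so both precipitates were above input (CPEB1 IP over input 0.89 ± 0.14, edgeR adjusted p = 5.67e-04). Hnrnpab (0.75 ± 0.15, edgeR adjusted p = 0.00212) was likewise above input in both precipitates, with IgG highest. Srsf9 (0.79 ± 0.23), Hnrnpa0 (0.73 ± 0.20), Hnrnpd (0.66 ± 0.17) and Hnrnpm (0.59 ± 0.13) completed the 6 largest, at edgeR adjusted p = 0.0188, 0.0123, 0.0114 and 0.00322. Hnrnpa1, Hnrnpu, Srsf11, Hnrnpc and Ptbp1 were higher by 0.56, 0.51, 0.51, 0.50 and 0.40 log2 units. Srsf5 was lower (-0.39 ± 0.12, edgeR adjusted p = 0.0283). Of the 6 largest rises and the 1 fall, Hnrnpab and Srrm2 kept their call under every alternative fit. With the deposited totals 2 genes were higher and 1 was lower (10.1% and 22.5% of the genes tested), and without CPEB1 IP replicate 1 or without replicate 2 of that group 3 were higher and 0 were lower (8.98% and 8.12%, then 7.37% and 8.36% of the genes tested). Without input replicate 2 the count rose to 19 higher and 1 lower (20.1% and 17.8%), and without input replicate 1 it was 11 and 4 (16.9% and 17.2%).

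Hnrnpa1, Hnrnpc, Hnrnpm and Ptbp1 were the genes higher in CPEB1 IP than in both IgG and input. Against input none of them kept the call under every alternative fit, and none passed with the deposited totals. Hnrnpa2b1, Hnrnpf, Hnrnph2, Hnrnpk and Hnrnpul2 were higher than IgG and did not pass against input. Hnrnpab and Srsf11 were lower than IgG, a call lost in most alternative fits as given above, and higher than input. In 14 genes no comparison passed, among them Srsf3, Srsf6, Srsf7, Srsf10 and Tra2b.

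The IgG libraries themselves differed from input at some of these genes. Of the 39 tested, 9 (23.1%) were higher in IgG and 4 (10.3%) were lower, where 21.4% and 19.4% of the 12980 genes tested were higher and lower. The share of members that were higher was near that background. The higher ones held 6 SR genes, namely Srsf12 (1.70 ± 0.59), Srsf9 (0.73 ± 0.29), Srsf11 (0.65 ± 0.14), Srsf2 (0.57 ± 0.15), Srsf1 (0.51 ± 0.16) and Tra2a (0.40 ± 0.15), with Hnrnpab (0.93 ± 0.17), Srrm2 (0.59 ± 0.13) and Hnrnpu (0.46 ± 0.14). The lower ones were hnRNP genes, Hnrnph2 (-1.14 ± 0.20), Hnrnph3 (-0.71 ± 0.21), Hnrnpk (-0.58 ± 0.13) and Hnrnpf (-0.40 ± 0.15). The edgeR adjusted p was at most 0.0389 among the 13, the value of Srsf9. None of the 13 kept its call under every alternative fit, and Srsf12 passed the filter on low counts through IgG alone. Of the 10 genes lower in CPEB1 IP than in IgG, 6 were higher in IgG than in input, and of the 9 genes higher in CPEB1 IP than in IgG, 3 were lower in IgG than in input. These comparisons share the IgG libraries, so a high or low IgG value enters both. The counts of IgG against input varied with the fit: 3 higher and 5 lower with DESeq2 (4.66% and 7.09% of 21568 genes), 2 and 8 with no filter (10.3% and 7.66% of 40052 genes), and 0 and 30 with the deposited totals (8.54% and 55.3%). With either IgG library left out fewer members were called, and fewer of all genes tested as well.

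CPEs were found in genes of each call. At least 1 was held by 8 of the 9 genes higher than IgG, by all 10 lower ones and by 19 of the 20 others. The 2 genes without any of the 9 motifs in an annotated 3′ UTR were Hnrnph2, which had the largest log2 fold change over IgG, and Srrm2, which had the largest over input. Their longest 3′ UTRs measured 803 and 516 bases. Hnrnpm had no motif in its longest 3′ UTR of 758 bases but did in another annotated transcript. Hnrnpr had the most positions, 48 in a 3′ UTR of 19419 bases, then Hnrnpd with 19 in 5429 bases, Hnrnpu with 18 in 5011 bases and Ptbp3 with 17 in 5015 bases. None of these 4 passed the test against IgG. Srsf1 had 14 in 4149 bases, Ptbp1 had 6 in 1494 bases, and Srsf9 had the densest, 6 in 361 bases. The last 100 bases of the longest 3′ UTR held a CPE in 0 of the 9 higher genes, 0 of the 10 lower genes and 8 of the 20 others, against 26.4% of the tested genes.

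**Figure D5:**
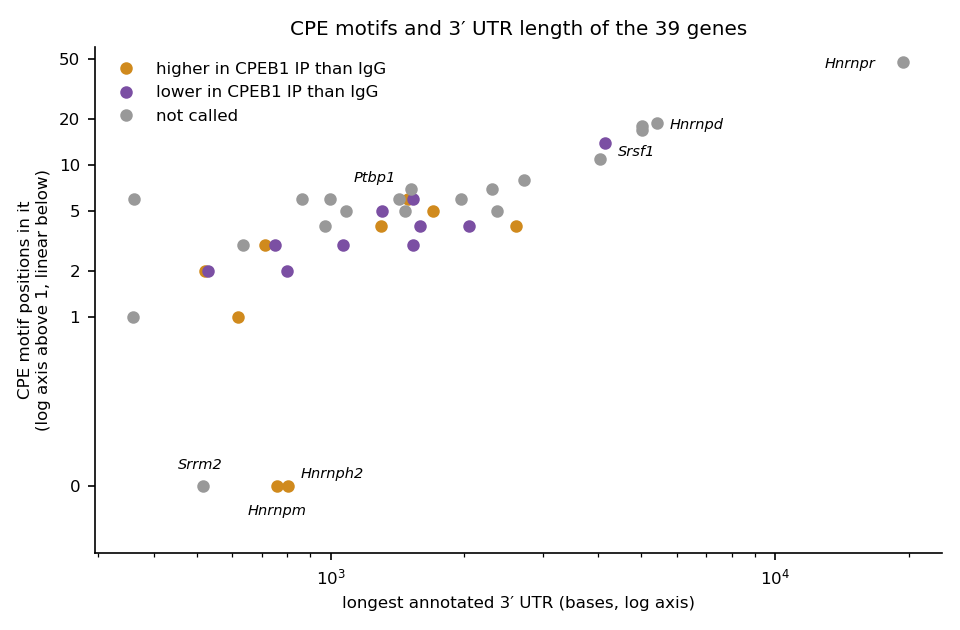
Number of CPE motif positions (log axis above 1) in the longest annotated 3′ UTR of the 39 genes against its length in bases (log axis), coloured by the call of CPEB1 IP against IgG. The count grows with length up to 48 in Hnrnpr, the 3 genes at 0 are Hnrnph2, Hnrnpm and Srrm2, and the 3 calls are mixed.

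Annotated transcripts with retained introns or marked for nonsense-mediated decay were also common. At least 1 retained-intron transcript was annotated for 30 of the 39 genes (76.9%), against 63.0% of the tested genes, and at least 1 decay-marked transcript for 27 (69.2%), against 30.2%. The share with a decay-marked transcript was 84.6% for the SR genes and 56.5% for the hnRNP genes. Such a transcript was annotated for 4 of the 9 genes higher than IgG, for 7 of the 10 lower ones and for 16 of the 20 others (80.0%). Counts per gene do not separate such transcripts from the coding ones. The median share of exon length outside coding transcripts was 28.0% over the genes higher than IgG, 39.3% over the lower ones, 25.8% over the others and 17.3% over the tested genes.

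Other genes of the splicing machinery are given for context. Of 28 genes for SR-related proteins and their U1 and U2 snRNP partners, 4 were higher in CPEB1 IP than in IgG and 12 were lower (14.3% and 42.9%, with TMM), and their median log2 fold change was -0.20 relative to all genes tested. Srrt (0.64, edgeR adjusted p = 3.15e-04) and Acin1 (0.59, 9.04e-04) were the highest of those that passed, and Luc7l2, a U1 snRNP partner (-1.05, 4.38e-06), and Nktr (-0.89, 9.17e-07) the lowest. With DESeq2 this list had 5 higher and 4 lower, with no filter 6 and 2, and with the deposited totals 24 and 0. In these fits the shares over all genes, for this list and the next ones, were 13.6% and 5.12%, 8.36% and 5.56%, and 59.0% and 7.73%. Of 14 genes, mainly for kinases that phosphorylate SR proteins and importins that carry them, with Ppig and Ppp1cc added, 1 was higher and 2 were lower. The higher one was the importin Kpnb1 (0.45, edgeR adjusted p = 0.00400). The lower ones were the muscle kinase Srpk3 (-1.43, 0.0131) and the SR protein kinase Clk1 (-0.53, 2.45e-04). Clk1 was at 0.27 with the deposited totals. Srpk3 did not pass with DESeq2 (adjusted p = 0.124), with no filter (edgeR adjusted p = 0.0938), with the deposited totals (0.191) or in 3 of the 4 fits with a library left out, and it was at -0.57 without IgG replicate 2. This list had 6 higher and 0 lower with DESeq2 and with no filter, and 13 and 0 with the deposited totals. Of 29 tested genes among 36 other splicing regulators, 5 were higher and 2 were lower (17.2% and 6.90%, where 14.7% and 18.7% of all genes were). With DESeq2 all 36 were entered, with or without an adjusted p, and 11 were higher and 0 lower, with no filter 15 and 1, and with the deposited totals 25 and 0. Nono (0.59, edgeR adjusted p = 0.00215) and Pcbp4 (0.44, 0.00713) were the highest of these. Both were lower in CPEB1 IP than in input (Nono -0.60, edgeR adjusted p = 0.00614, and Pcbp4 -0.73, 0.00261) and lower still in IgG (-1.30 and -1.29 against input), and Pcbp4 did not pass against IgG without CPEB1 IP replicate 2 (edgeR adjusted p = 0.119). Qk (-0.30, edgeR adjusted p = 0.0179) was among those that fell, though it stood above 0 with the deposited totals, at 0.50, and with no filter, at 0.09.

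Some counts may hold reads of near-identical copies or of overlapping genes. A pseudogene copy with at least 90% identity over 500 bases was annotated for 16 of the 39 genes. Hnrnpa3 had 34 copies, whose summed counts reached 48.1% of its own in a library, and Hnrnpa1 had 15, reaching 6.54%. Hnrnpk had 2, reaching 12.7%. Whether the counting used strand is not given in the sources used here, so reads of Srsf2 and of Mettl23 and Mfsd11 on the opposite strand, or of Ptbp1 and E130317F20Rik and Plppr3, cannot be told apart where they overlap.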

How the data were processed

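Per the labels and the study's methods, SCs were sorted and lysed, RNA was taken as input or precipitated with anti-CPEB1 or IgG, and libraries were made by SMART-seq2. The authors aligned reads with HISAT2 to mm10 (GRCm38) and counted them on genes with featureCounts (StringTie is also named in the submitters' processing notes). They deposited raw counts, exon length and FPKM, the latter on a library total larger than the counts on genes. Annotation release, strand setting and treatment of reads with several alignments are not given in the sources used here.

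The count test was edgeR 4.0.16 in R 4.3.3 (filterByExpr, TMM, quasi-likelihood test), 2 groups of 2 libraries at a time, with Benjamini-Hochberg adjustment over all genes tested at 0.05. The steps were tested on simulated counts. A log2 fold change of 1 was recovered for 55% of the changed genes in CPEB1 IP against IgG. The share was 67.5% in CPEB1 IP against input and 37.5% in IgG against input. At a log2 fold change of 2 the shares were 94.5%, 98% and 95%, and changes smaller than 1 were not simulated. The CPM shown are scaled over all 6 libraries, while fold changes come from the pairwise fits. The standard error is the log2 fold change divided by the square root of F. Alternatives were DESeq2 1.42.0 and the other settings named in the closing section. Of 55376 genes, 54488 matched GENCODE M21 by symbol and position, members included. CPE motifs were read from the study's list of elements. Copies were found with BLAST 2.17.0. Named against IgG were all members. Against input or between IgG and input the 6 largest changes in each direction were named, and for other lists the 2 largest and 2 smallest that passed. A gene that this rule names in those lists is not reported here. Other genes named in those comparisons, and the ratio of the families, were chosen after their values were seen. Members, lists and alternatives were chosen with earlier results of these data known. Plots used matplotlib 3.10.9.

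The FPKM ratio pairs the libraries by number as in the study's methods, with a pseudocount of 1 that was added here. The same rule without a pseudocount and with DESeq2 was added after seeing the data. With 2 libraries a group, and with the lowest depth in IgG (1284716 and 1359052 counts), precision comes from the spread that genes share.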

Additional observations from a re-analysis of the deposited data

How the results depend on the processing

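Of the 39 log2 fold changes of CPEB1 IP over IgG, 21 changed sign with the library totals behind the deposited FPKM, 20 of them with a call before or after. The values were 0.70 for Hnrnpa3, 0.50 for Hnrnpab, 0.67 for Hnrnpdl, 0.46 for Hnrnph1, 0.58 for Hnrnpl, 0.55 for Hnrnpll, 0.78 for Hnrnpr, 0.73 for Hnrnpu, 0.37 for Ptbp2, 0.49 for Son, 0.33 for Srsf1, 0.75 for Srsf10, 0.55 for Srsf11, 0.75 for Srsf3, 0.67 for Srsf4, 0.50 for Srsf5, 0.74 for Srsf7, 0.73 for Srsf9, 0.37 for Tra2a and 0.70 for Tra2b. With no filter on low counts 17 changed sign, 10 of them without a call in either fit, and those with a call were Hnrnpab (0.09), Hnrnph1 (0.05), Son (0.08), Srsf11 (0.14), Srsf3 (0.34), Srsf5 (0.09) and Srsf7 (0.33), and with DESeq2 13 did, 12 of them without a call in either and Srsf11 (0.02) with one. In IgG against input the deposited totals turned Srsf2 (-0.31), Srrm2 (-0.29), Srsf11 (-0.23) and Srsf9 (-0.15). These scalings move the median of all genes by construction, as given above. Counts of members higher and lower in CPEB1 IP than in IgG were 14 and 1 with DESeq2, 17 and 1 with no filter, 35 and 0 with the deposited totals, and 6 lower with all 6 libraries in 1 fit. They ranged from 7 to 10 higher and from 3 to 7 lower with each library left out. Over all genes, 14.7% were higher and 18.7% were lower with TMM, 59.0% and 7.73% with the deposited totals, and 13.6% and 5.12% of those with an adjusted p from DESeq2. With all 6 libraries in 1 fit 11.1% were higher and 15.8% were lower. In CPEB1 IP against IgG and in IgG against input, every fit with a library left out called a smaller share of all genes than the main fit. Against input the deposited totals gave 2 higher, and leaving out a library gave 3 to 19 higher and 0 to 4 lower. For IgG against input the counts were 3 higher with DESeq2, 2 higher and 8 lower with no filter, 0 and 30 with the deposited totals, and 1 to 8 higher and 1 to 5 lower with a library left out. The FPKM rule gave 7 genes with the deposited FPKM, 0 with TMM library sizes, 8 with a pseudocount of 0.1 or with DESeq2, and 6 with a pseudocount of 5. It gave 9 with DESeq2 and no pseudocount, which was chosen after seeing the data. Shares over all genes are given above only for the counts of 7 and 9.

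With the replicate number as a block, 8 members were higher and 8 were lower in CPEB1 IP than in IgG (14.3% and 18.4% of all genes tested). Against input 10 were higher and 0 lower (15.9% and 14.8%), and in IgG against input 9 were higher and 5 lower (21.4% and 20.7%). In the last comparison 23.1% of the members were higher, near the share over all genes. No sign of a pairing by replicate number was seen in the counts: deviations of same-numbered libraries from their group means correlated at -0.00955 (CPEB1 IP and IgG), -0.0286 (CPEB1 IP and input) and 0.0274 (IgG and input). Counting noise lowers such a correlation, so it cannot decide whether same-numbered libraries were paired. The labels give the numbers without saying that they mark shared cells. With each library left out, an arm of 1 library is assumed to vary like the other. Depth limits Srsf12 (8 and 10 counts in IgG) and Hnrnpul2 (19 and 22) most among the genes that passed.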
